A study of Mus musculus with 6 samples.

Results

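Transcription factors that commit T cells to helper and effector lineages were followed in regulatory T (Treg) cells, the CD4 T cells that restrain immune responses, after deletion of Gata3. The 9 genes were Tbx21, Eomes, Rora, Bcl6, Prdm1, Ahr, Runx3, Batf and Hlx. They were chosen by name, and all 9 were measured among the 12394 genes compared, through 14 probe sets that each name 1 gene. Where a gene had several probe sets, the gene was read from its brightest one on average, and the others are given beside it.

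The cells were mouse Treg cells, sorted as CD4+CD25+YFP+ from lymph nodes and spleen, and their RNA was read on 6 Affymetrix arrays. The 3 arrays labelled Gata3-deficient came from Gata3F/FFoxp3YFP-Cre mice, in which both Gata3 alleles are floxed, that is, can be cut by the Cre recombinase. The 3 arrays labelled Gata3-sufficient, also called WT in the labels, came from Gata3F/+Foxp3YFP-Cre mice, with 1 floxed and 1 intact allele. Both groups therefore carry the Foxp3-driven Cre and at least 1 floxed allele. In the comparison group Cre can thus also cut 1 Gata3 allele, and that group is heterozygous for the floxed allele rather than free of the construct. The ages of the mice, their strain background and whether an array holds 1 mouse were not stated in the labels, so p-values measure the spread between these arrays.

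T cells that leave the naive state take up programs under a few transcription factors. Tbx21 encodes T-bet, which drives the Th1 fate, and Eomes its T-box relative of cytotoxic cells. Rora encodes a nuclear receptor of Th17 cells, and Bcl6 and Prdm1 (Blimp-1) oppose each other in follicular helper and effector cells. Treg cells borrow these factors: T-bet marks Treg cells of Th1 inflammation, Bcl6 those of follicles, and Blimp-1 and Batf effector Treg cells. Gata3, the factor of type 2 helper T cells, is itself used by Treg cells, and the comparison asked which of the other lineage factors differ when it is deleted.

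Array medians lay between 6.06 and 6.11 log2 units, and the first principal component, with 35.2% of the variance, placed the 2 groups apart. The second component, with 25.0%, split the deficient group, with replicate 1 at 12.1 and replicates 2 and 3 at -8.03 and -9.74. Sufficient arrays lay from -2.00 to 5.18 on it. The 1 Gata3 probe set went against the labels: it read 9.84 ± 0.14 in arrays labelled deficient and 9.48 ± 0.08 in those labelled sufficient (SD, n = 3 each). The labels do not say which part of the gene Cre removes, and if the probe set lies outside it the reading says nothing about the labels, so each direction below is only as good as the labels. Of 15 T cell and Treg markers 14 were measured. Cd3e, Cd4, Il2ra and Ctla4 were not dim, dim meaning a mean below 5.55, the 40th percentile of all genes, while Foxp3, whose reporter served for the sort, was dim at 3.94 ± 0.12 and 3.90 ± 0.05 in deficient and sufficient arrays. The Foxp3 probe set thus does not check the cell type. Of the 14 markers 1 passed the test used below, Nrp1, a receptor of thymus-derived Treg cells, at 10.26 ± 0.09 in deficient and 11.03 ± 0.14 in sufficient arrays (SD, n = 3 each; log2 change -0.77, adjusted p = 0.0015 by limma). The list as a whole went the other way: 13 of the 14 changes were positive, against 53.0% of all genes, with a median of 0.10. Before adjustment 6 markers were higher and 1 lower (p under 0.05 by limma), against 14.4% of all genes in either direction.

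Tbx21 fell and Rora rose in the arrays labelled Gata3-deficient, and the other 7 factors did not pass the test. Calls are from limma, which borrows the spread across genes, with a threshold of 0.05 on p after Benjamini-Hochberg adjustment across the 12394 genes. The 2 called factors make 22.2% of the 9, against 2.21% of all genes called in either direction, 1.44% higher and 0.766% lower. Before adjustment 5 factors had a p under 0.05, Tbx21 and Bcl6 lower and Rora, Ahr and Batf higher, or 55.6%, against 14.4% of all genes. The groups did not overlap for 3 factors, Tbx21, Rora and Bcl6, or 33.3%, against 19.8% of all genes (11.3% with the deficient group higher and 8.51% with it lower). The median log2 change of the 9 was 0.02 and that of all genes 0.0078, and 5 of the 9 changes were positive and 4 negative. The factors were picked with earlier results of these data known, so these shares are descriptions.

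**Figure D1:**
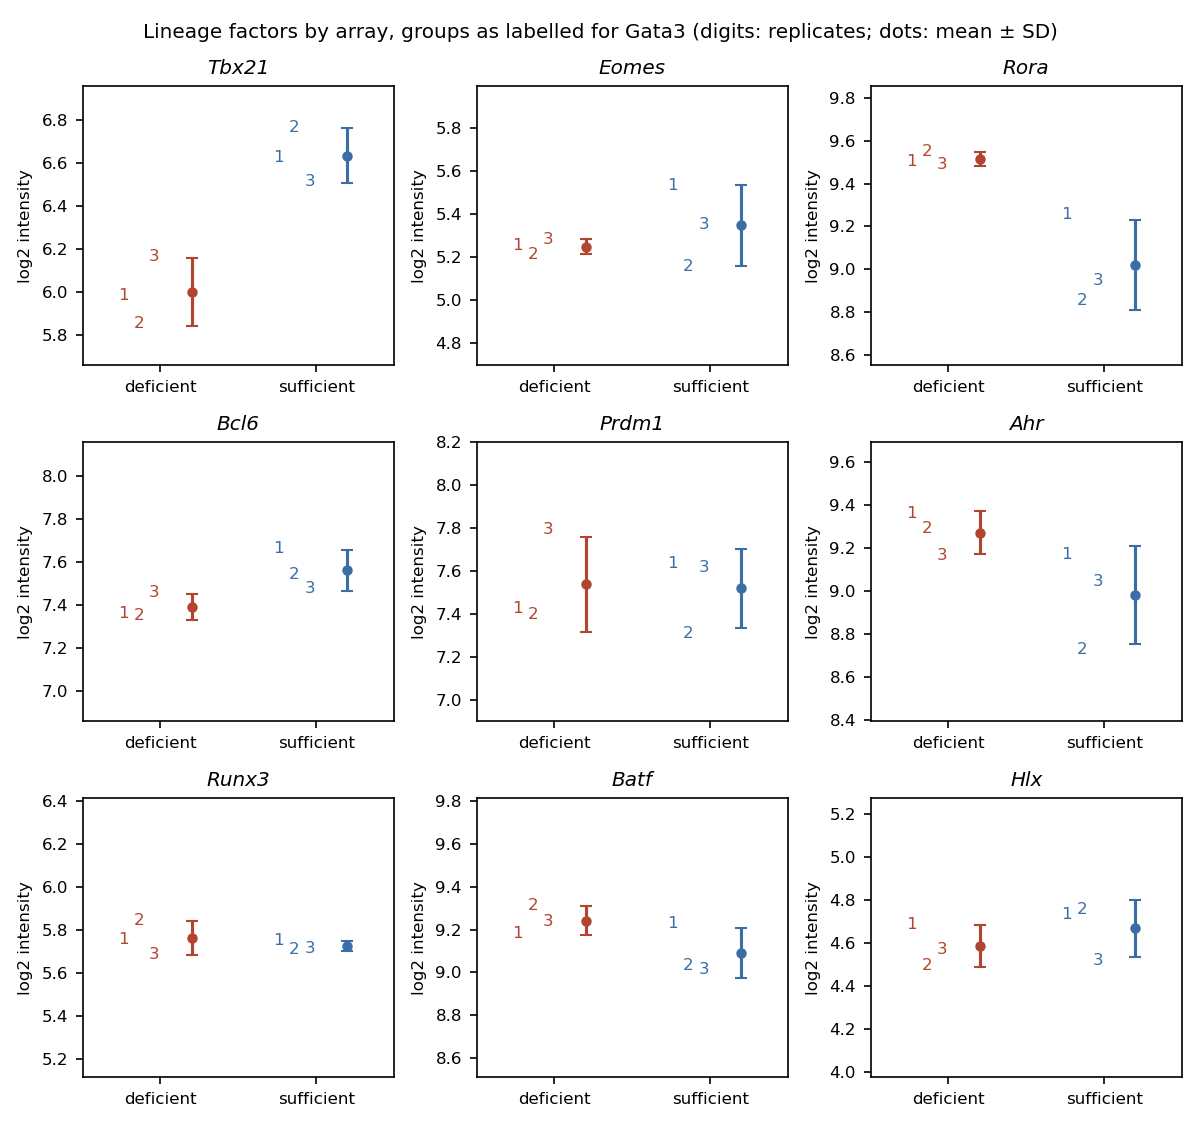
Log2 intensity of each of the 9 factors on every array, with arrays labelled Gata3-deficient on the left of each panel and Gata3-sufficient on the right; digits are replicate numbers, dots and bars the mean ± SD of 3 arrays, and every panel spans the same log2 range. The groups are apart for Tbx21 (lower), Rora (higher) and, narrowly, Bcl6 (lower), and overlap in the other 6 panels.

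The promoters of the 2 called factors are shown because GATA factors bind words with the core GATA, and because these are the factors that moved. Both are the 250 bases before the RefSeq start site in build GRCm38.p6, written 5′ to 3′ on the gene's strand, with capitals marking a match to a GATA word.
Tbx21 (chr11:97115332-97115581, minus strand): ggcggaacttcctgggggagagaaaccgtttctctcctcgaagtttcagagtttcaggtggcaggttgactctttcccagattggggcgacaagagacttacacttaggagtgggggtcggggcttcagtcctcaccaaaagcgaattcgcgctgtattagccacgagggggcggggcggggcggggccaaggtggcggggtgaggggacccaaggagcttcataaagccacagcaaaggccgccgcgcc
Rora (chr9:68653536-68653785, plus strand): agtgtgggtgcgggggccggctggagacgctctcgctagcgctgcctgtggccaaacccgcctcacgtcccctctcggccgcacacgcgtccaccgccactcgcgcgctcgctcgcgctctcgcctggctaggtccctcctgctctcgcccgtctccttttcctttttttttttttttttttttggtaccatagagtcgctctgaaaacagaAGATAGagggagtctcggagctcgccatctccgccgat
The words searched, on both strands, were AGATAA and AGATAG as well as TGATAA and TGATAG, each counted also where it overlaps another. Rora holds 1 word, AGATAG, at bases -38 to -33 from the start site. The Tbx21 window holds 0 of these words. Both windows are rich in G and C, at 61.2% for Rora and 60.8% for Tbx21. Of the other factors with a promoter entry, Batf alone holds a word, AGATAA on the opposite strand at bases -245 to -240, while Eomes, Bcl6, Prdm1, Runx3 and Hlx hold 0 in their windows. Ahr has no entry in the table. Over all 32851 promoters of the same length, 26.5% hold at least 1 of these words. The 8 factors with an entry have 10 windows, as Bcl6 and Runx3 have 2 each. A word in 2 of these 10 windows is a share near that of promoters in general. A match is only a run of letters, and binding was not measured.

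Of the T-box factors, Tbx21 was lower in the arrays labelled Gata3-deficient. Its 1 probe set had levels of 5.98, 5.85 and 6.16 in deficient replicates 1, 2 and 3, against 6.63, 6.77 and 6.51 in sufficient replicates 1, 2 and 3. The highest deficient array lay 0.35 below the lowest sufficient one, so the groups did not overlap. The mean was 6.00 ± 0.16 in deficient and 6.64 ± 0.13 in sufficient arrays (SD, n = 3 each), a 1.55-fold lower level (log2 change -0.63 ± 0.10, SE, 95% interval -0.87 to -0.40, adjusted p = 0.0185 by limma). Tbx21 ranked 95 of 12394 genes by p. The call did not hold when deficient replicate 2 (log2 change -0.56, adjusted p = 0.0824) or sufficient replicate 2 (-0.57, 0.105) was left out, nor without the intensity trend of the spread (0.0581), while its direction held in all 18 other settings run. In bulk RNA a smaller share of T-bet-expressing cells and less Tbx21 RNA per cell cannot be told apart, here and for each gene below.

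Eomes, the T-box factor of memory and cytotoxic lymphocytes, was dim on both its probe sets. The brighter one read 5.25, 5.21 and 5.28 in deficient arrays, against 5.53, 5.16 and 5.35 in sufficient arrays. The sufficient arrays spanned the deficient ones, and the log2 change was -0.10 ± 0.11 (SE, 95% interval -0.35 to 0.15, adjusted p = 0.765 by limma). Its other probe set had a change of -0.24 (95% interval -0.52 to 0.03), also with overlapping groups.

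Runx3, which works with T-bet in Th1 cells and silences Cd4 in cytotoxic T cells, had nearly equal values. They were 5.75, 5.84 and 5.68 in deficient arrays, against 5.75, 5.71 and 5.71 in sufficient arrays. The deficient arrays lay on both sides of the sufficient ones (log2 change 0.04 ± 0.09, SE, 95% interval -0.16 to 0.23, adjusted p = 0.904 by limma). Hlx, a homeobox factor that supports interferon gamma expression with T-bet, was dim. It read 4.69, 4.49 and 4.57 in deficient arrays, against 4.73, 4.75 and 4.52 in sufficient arrays, with overlapping groups (log2 change -0.08 ± 0.11, SE, 95% interval -0.32 to 0.16, adjusted p = 0.8). Among the Th1-associated factors Tbx21 alone passed the test, and whether its change differs from those of Eomes, Runx3 and Hlx was not tested.

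Rora was higher in the arrays labelled Gata3-deficient. Its brightest probe set had levels of 9.50, 9.55 and 9.49 in deficient replicates 1, 2 and 3, against 9.26, 8.86 and 8.95 in sufficient replicates 1, 2 and 3. The deficient arrays lay close together and all above the highest sufficient array, replicate 1. The mean was 9.51 ± 0.03 in deficient and 9.02 ± 0.21 in sufficient arrays (SD, n = 3 each), a 1.41-fold higher level (log2 change 0.49 ± 0.09, SE, 95% interval 0.29 to 0.69, adjusted p = 0.0257 by limma). With arrays left out singly the call held in 1 of 6 fits, that without sufficient replicate 1 (log2 change 0.61, adjusted p = 0.00129). It was lost without deficient replicate 1 (0.50, 0.0588), 2 (0.47, 0.11) or 3 (0.51, 0.0671) and without sufficient replicate 2 (0.41, 0.108) or 3 (0.46, 0.0779), with a positive change throughout, and also without the intensity trend (0.114).

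A second Rora probe set gave a change of the same size. It read 8.35, 8.27 and 8.13 in deficient arrays, against 7.78, 7.72 and 7.72 in sufficient arrays, again without overlap. Its log2 change was 0.51 ± 0.07 (SE, adjusted p = 0.0077 by limma over all 20393 probe sets with 1 gene, on which scale the brightest had 0.0283). With 1 array left out this probe set passed in 5 of 6 fits, with log2 changes from 0.46 to 0.57, and missed without sufficient replicate 2 (0.50, adjusted p = 0.0552). The third Rora probe set was dim, overlapped between groups and had a change of 0.06 ± 0.12 (SE). The mean of all 3 probe sets changed by 0.35 ± 0.05 (SE, adjusted p = 0.012). Probe sets of a gene are read on the same arrays and are not separate replicates.

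**Figure D2:**
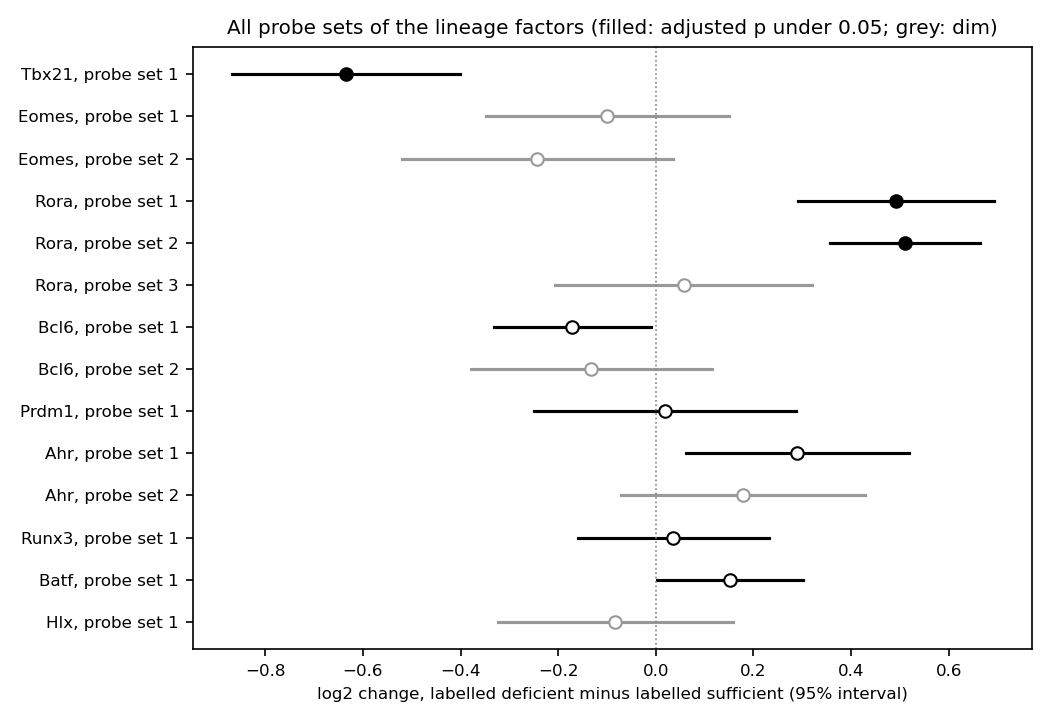
Log2 change with its 95% interval for each of the 14 probe sets of the 9 factors, numbered from the brightest; filled points have an adjusted p under 0.05 over all probe sets with 1 gene, and grey marks dim probe sets. The Tbx21 probe set and the brighter pair of Rora probe sets are filled, and the intervals of the dim probe sets all cross 0.

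Ahr, the ligand-activated aryl hydrocarbon receptor, and Batf, an AP-1 family factor, act beside Rora in Th17 cells and are used by Treg cells of barrier tissues. Ahr read 9.36, 9.29 and 9.16 in deficient arrays, against 9.17, 8.73 and 9.05 in sufficient arrays. Only deficient replicate 3 and sufficient replicate 1 were out of order, and the log2 change of 0.29 ± 0.10 (SE, 95% interval 0.06 to 0.52) did not pass (adjusted p = 0.212 by limma). The dim second Ahr probe set had a change of 0.18 ± 0.11 (SE). Batf read 9.18, 9.31 and 9.24 in deficient arrays, against 9.23, 9.03 and 9.01 in sufficient arrays. Sufficient replicate 1 lay above deficient replicate 1, and the log2 change of 0.15 ± 0.07 (SE, 95% interval 0.0031 to 0.30) did not pass (adjusted p = 0.336). In these 3 factors sufficient replicate 1 was the highest array of its group, and without it the log2 changes were 0.61 for Rora, 0.38 for Ahr (adjusted p = 0.0896) and 0.22 for Batf (adjusted p = 0.1). Without sufficient replicate 2, the lowest of its group for Rora and Ahr, they were 0.41 for Rora, 0.16 for Ahr (adjusted p = 0.499) and 0.12 for Batf (adjusted p = 0.659).

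Bcl6 and Prdm1 repress each other's programs. Bcl6 read 7.36, 7.35 and 7.46 in deficient arrays, against 7.67, 7.54 and 7.48 in sufficient arrays. The groups did not overlap, but deficient replicate 3 and sufficient replicate 3 lay 0.02 apart. The log2 change was -0.17 ± 0.07 (SE, 95% interval -0.33 to -0.01) and did not pass (adjusted p = 0.304 by limma), and the dim second probe set had -0.13 ± 0.11 (SE). Prdm1 read 7.43, 7.40 and 7.79 in deficient arrays, against 7.63, 7.31 and 7.62 in sufficient arrays. The range of the deficient arrays held sufficient replicates 1 and 3, and the change was 0.02 ± 0.12 (SE, 95% interval -0.25 to 0.29, adjusted p = 0.968). Its sign turned without deficient replicate 3 (-0.11) or sufficient replicate 2 (-0.087), so no direction can be given for Prdm1.

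Within the sufficient group, replicate 1 was the highest array for 7 of the 9 factors and replicate 2 the lowest for 5. The exceptions for replicate 1 were Tbx21 and Hlx, both highest in replicate 2. Within the deficient group no array was the highest for more than 4 factors. The averaged deviation of the 9 factors from their means was 0.12 in sufficient replicate 1 and between -0.08 and 0.03 in the other 5 arrays.

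The genes whose pattern over the 6 arrays lay nearest to each called factor were taken from 12125 named genes by Pearson's r. Nearest to Tbx21 were Atp1b1, Orc4 and Dmxl1, with r of 0.992, 0.991 and 0.991. Atp1b1 encodes the beta subunit of the sodium pump and Orc4 a subunit of the origin recognition complex. Nearest to Rora were Anxa2 (r = 0.999), Ndufs1 (0.998) and Art3 (0.993). A high r is not a change of like size. Ndufs1 changed by 0.09 ± 0.04 (SE, adjusted p = 0.382 by limma) and Dmxl1 by -0.30 ± 0.07 (SE, 0.0611), and neither passed, while Atp1b1, Orc4, Anxa2 and Art3 did. Anxa2, the gene of annexin A2, read 8.42, 8.46 and 8.41 in deficient arrays, against 8.15, 7.80 and 7.88 in sufficient arrays, and its 6 arrays stood in the same order as those of Rora. All genes were read on the same 6 arrays, and these correlations describe those arrays only.

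Genes of the programs that these factors control were read from 7 lists, some with shared members. The lists were picked by role, but with earlier results of these data known, so their counts are descriptions. Beside each list count below stand the shares over all genes, 1.44% called higher and 0.766% lower. Before adjustment 14.4% of all genes had a p under 0.05 by limma. In the T-bet and Th1 list 2 of 19 measured genes fell, 0 rose and 17 did not pass, with a median log2 change of -0.05. Ifng, the gene of interferon gamma and a direct T-bet target, read 6.40, 7.02 and 6.84 in deficient arrays, against 7.85, 7.81 and 7.54 in sufficient arrays. It was the lower in every deficient array (log2 change -0.98 ± 0.15, SE, adjusted p = 0.0118 by limma), a call that did not hold when sufficient replicate 2 was left out (adjusted p = 0.0736). Cxcr6, a chemokine receptor of Th1 and tissue cells, fell by 0.47 (SE 0.10, adjusted p = 0.0398). The Cxcr6 call passed only without sufficient replicate 1, with adjusted p from 0.051 to 0.182 without any other array. Il18r1, a chain of the interleukin 18 receptor, missed the threshold with a change of 0.24, of opposite sign to Ifng. The chemokine receptor gene Cxcr3 missed it with a change of the same sign as Ifng, -0.21 ± 0.08 (SE). Before adjustment 1 gene of the list was higher and 3 lower (p under 0.05 by limma), and 7 of the 19 changes were positive.

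The cytotoxic list of Eomes and Runx3 was divided, with 3 of 17 genes higher, 1 lower and a median of 0.02. Gzmb, the gene of granzyme B, rose by 1.45 ± 0.11, the dim Gzma, that of granzyme A, by 0.99 ± 0.17 and Cst7, which encodes the protease inhibitor cystatin F, by 0.72 ± 0.12 (SE). Klrg1, an inhibitory lectin-like receptor of effector cells, fell by 0.58. Gzmb alone kept its call with each array left out. The calls of Gzma were lost without deficient replicate 2 or 3 or sufficient replicate 2 or 3, of Cst7 without deficient replicate 1 or 2 or sufficient replicate 2 or 3, and of Klrg1 without deficient replicate 2 or 3 or sufficient replicate 2 (adjusted p up to 0.11, 0.107 and 0.084). With dim genes left out 2 of 13 genes were higher and 1 lower. With 1 array left out, 1 to 3 genes of the list were higher and 0 to 2 lower. NK and innate lymphoid cells, which use the same factors and granule genes, were read from 11 markers. Of these 6 were measured, 4 of them dim, Ncr1 and Klra8 included, and 0 passed in limma (2 higher and 0 lower before adjustment). These 6 markers all had a positive change, against 53.0% of all genes, with a median of 0.16. Their summed level was 7.80 to 8.11 in deficient arrays, against 7.58 to 7.76 in sufficient arrays, and its part in the granzyme result was not tested. Other lectin-like receptors, in the cytotoxic list, had negative changes: Klrk1 -0.57 ± 0.17, Klrd1 -0.71 ± 0.23 and Klrc1 -0.42 ± 0.36 (SE). Klrc1 read 4.21, 5.63 and 5.85 in deficient replicates 1, 2 and 3, against 5.49, 6.01 and 5.44 in sufficient arrays. Klrd1 read 5.64 in deficient replicate 1, against 6.53 and 6.66 in deficient replicates 2 and 3. Deficient replicate 1 was the lowest of its group for each of these receptors. None of them passed, and only Klrk1 and Klrd1 had groups that did not overlap. Before adjustment 4 genes of the cytotoxic list were higher and 3 lower (p under 0.05 by limma). Cd8a was dim, and the summed level of Cd8a and Cd8b1 overlapped between groups (6.97 to 7.05, against 6.85 to 7.13).

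In the Th17 list 1 of 15 measured genes rose, 0 fell and 14 did not pass, and 12 had a positive change, against 53.0% of all genes. Ccr6, the chemokine receptor of Th17 cells, read 10.36, 10.09 and 10.30 in deficient arrays, against 9.80, 9.39 and 9.84 in sufficient arrays. All deficient arrays lay above the sufficient ones (log2 change 0.57 ± 0.11, SE, adjusted p = 0.0376 by limma), with the call lost without deficient replicate 1, 2 or 3 or sufficient replicate 2 (adjusted p from 0.0623 to 0.104). Il6st, the shared chain of interleukin 6 family receptors (0.22 ± 0.05), and the dim Il17a (0.45 ± 0.11), the gene of interleukin 17A, had groups that did not overlap but missed the threshold (adjusted p = 0.0643 and 0.0867). The list's median was 0.08, and 0.06 to 0.17 with 1 array left out.

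The follicular helper list of Bcl6 held 1 higher and 1 lower gene of 16, with a median of 0.06. Cxcr5, which guides cells into B cell follicles, rose by 0.54 ± 0.08, and Sh2d1a, the gene of the adaptor SAP that follicular helper cells need, fell by 0.35 (SE 0.05). The call of Cxcr5 did not hold when sufficient replicate 2 was left out (0.51, adjusted p = 0.07), nor that of Sh2d1a when deficient replicate 2 was (-0.34, adjusted p = 0.0558). B cells and plasma cells, which use Bcl6 and Prdm1, were read from 12 and 6 markers. Of 11 measured B cell markers 8 were dim, Cd79a and Pax5 among them, and Cd22 alone passed. Their summed level was 9.23 to 9.41 in deficient arrays, against 8.91 to 8.97 in sufficient arrays, with Cd22 at 8.13 and 6.98, but 7 of the 11 had a negative change and the list's median was -0.14. Of 5 measured plasma cell markers 0 passed in limma (1 higher and 1 lower before adjustment), and their summed level overlapped, at 11.05 to 11.15 against 11.01 to 11.26. The part of these cells in the Bcl6, Prdm1 and Cxcr5 values was not tested.

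The effector Treg list of Prdm1 and Batf had 3 of 19 genes higher and 1 lower, with a median of 0.05. The higher genes were Gzmb, Tnfrsf4 (0.32 ± 0.05, SE), which encodes the costimulatory receptor OX40, and Gata3 itself, which is a member of the list as well as the targeted gene. The lower gene was Klrg1. The Tnfrsf4 call was lost without deficient replicate 2 or 3 or sufficient replicate 2 (adjusted p up to 0.0838) and that of Gata3 without deficient replicate 1 or 2 or sufficient replicate 2 or 3 (up to 0.182). Before adjustment 7 genes of the list were higher and 2 lower (p under 0.05 by limma), against 14.4% of all genes in either direction. Of the 19 changes 10 were positive. Ctla4 (0.22 ± 0.05, SE, adjusted p = 0.0531) and Icos (0.35 ± 0.09, 0.0831) had groups that did not overlap but missed the threshold. Irf4, the partner that Batf binds with on DNA, had a change of 0.12 ± 0.13, and Il10, a target of Blimp-1, of -0.15 ± 0.15 (SE), and neither passed. With 1 array left out, 1 to 4 genes of the list were higher and 0 or 1 lower.

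None of the 11 measured genes of the Ahr pathway list passed in limma, and before adjustment 2 higher and 2 lower genes had a p under 0.05. Of the 11 genes 8 were dim. Cyp1b1, a cytochrome P450 gene induced through Ahr, had a change of 0.35 ± 0.11 (SE, adjusted p = 0.171), and its groups did not overlap although it was dim. Cyp1a1 and Ahrr, also induced through Ahr, were dim with changes of 0.21 ± 0.15 and 0.12 ± 0.14 (SE). Other genes of the list had negative changes. Tiparp, which was not dim, had -0.17 ± 0.08, and the dim Aldh3a1 and Cyp1a2 had -0.14 ± 0.08 and -0.12 ± 0.13 (SE). Of the 11 changes 5 were positive, and the list's median was -0.04. Hsp90aa1, a chaperone that holds Ahr in the cytosol, had -0.25 ± 0.09, and Nfe2l2, a stress factor linked to Ahr, had -0.16 ± 0.07 (SE), and neither passed. Arnt, the obligate partner of Ahr, was dim with a change of -0.04 ± 0.09 (SE).

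Among partners, relatives and opponents of the 9 factors 1 of 22 genes rose and 2 fell. Id3, an inhibitor of E proteins that is high in naive and follicular T cells, read 8.33, 8.41 and 8.43 in deficient arrays, against 8.998, 8.94 and 9.04 in sufficient arrays. The groups lay well apart (log2 change -0.60 ± 0.05, SE, adjusted p = 0.0012 by limma), and Id3 passed with each array left out. Bach2, which competes with Batf-containing AP-1 factors for DNA, fell by 0.36 (SE 0.06, adjusted p = 0.0184). The Bach2 call was lost without deficient replicate 2 or 3 or sufficient replicate 2 (adjusted p up to 0.0935). Tle3, a corepressor that Runx factors recruit, rose by 0.24 ± 0.05 (SE, adjusted p = 0.0447), but with each array left out in turn it passed in 0 of 6 fits (adjusted p from 0.0569 to 0.196). Without the intensity trend Gzmb and Id3 kept their calls, and the other 12 of the 14 called genes of the 7 program lists, Ifng, Cxcr5 and Sh2d1a among them, lost theirs (adjusted p from 0.0674 to 0.178). Runx1, the relative of Runx3, had -0.17 ± 0.06 and Cbfb, their shared partner, 0.03 ± 0.04 (SE), and neither passed.

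**Figure D3:**
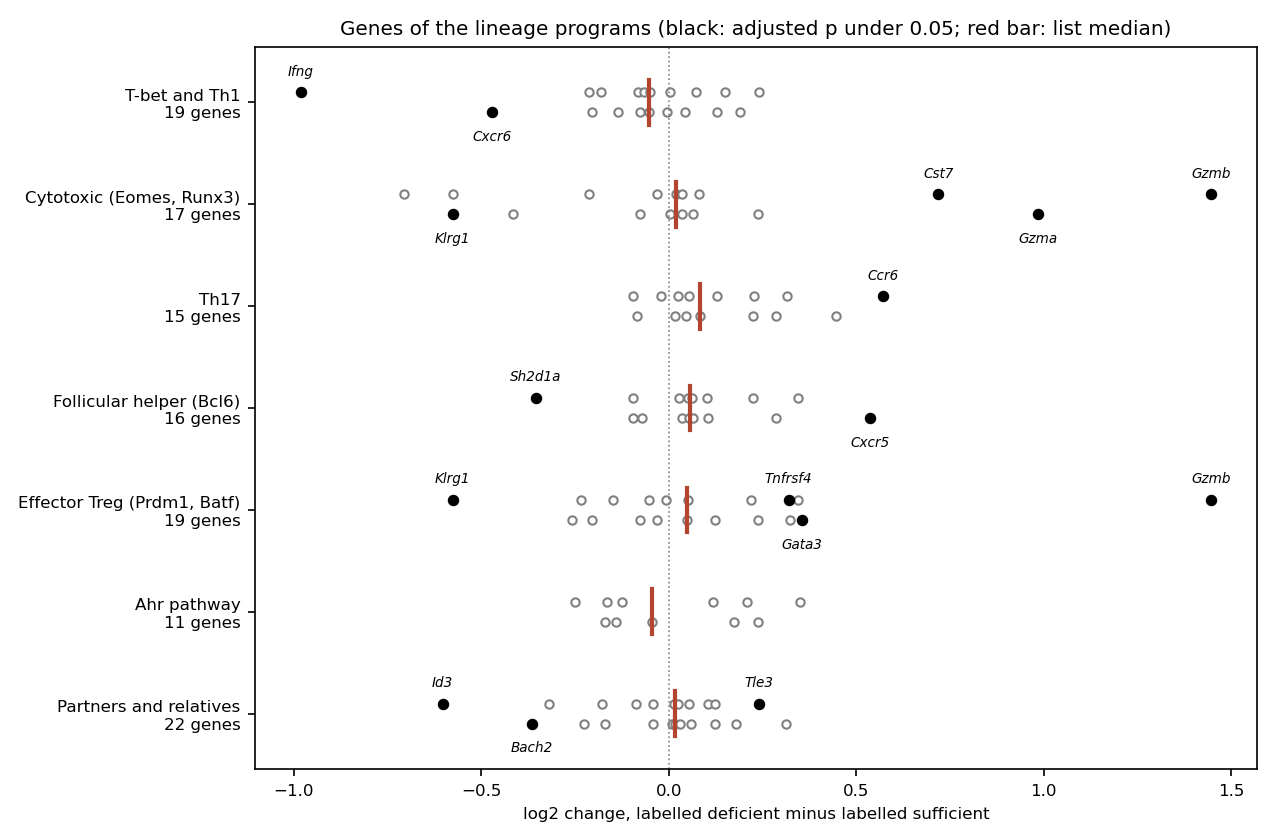
Log2 change, arrays labelled Gata3-deficient minus Gata3-sufficient, of each measured gene in the 7 program lists; black named points have an adjusted p under 0.05 over all genes and the red bar is the list's median. Called genes lie on both sides of 0 in 4 lists, below it only in the Th1 list and above it only in the Th17 list, and every median lies between -0.05 and 0.08.

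Rora and Ahr are also expressed by myeloid and innate cells, so markers of those cells stand beside them. Of 12 measured myeloid and dendritic cell markers 8 were dim and 1, Lyz1, passed, though not without deficient replicate 2 or 3 or sufficient replicate 2 or 3 (adjusted p up to 0.16). Their summed level was 9.114 to 9.791 in deficient arrays, against 8.713 to 9.108 in sufficient arrays. The lysozyme genes had the largest changes of the list, Lyz1 with 1.44 ± 0.31 and Lyz2 with 1.02 ± 0.26 (SE), while the list's median was 0.07. All 8 measured neutrophil markers were dim and 0 passed in limma (2 higher and 0 lower before adjustment), with a summed level of 7.83 to 8.60 in deficient arrays, against 7.65 to 7.76 in sufficient arrays. The part of these cells in the Rora and Ahr values was not tested.

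**Figure D4:**
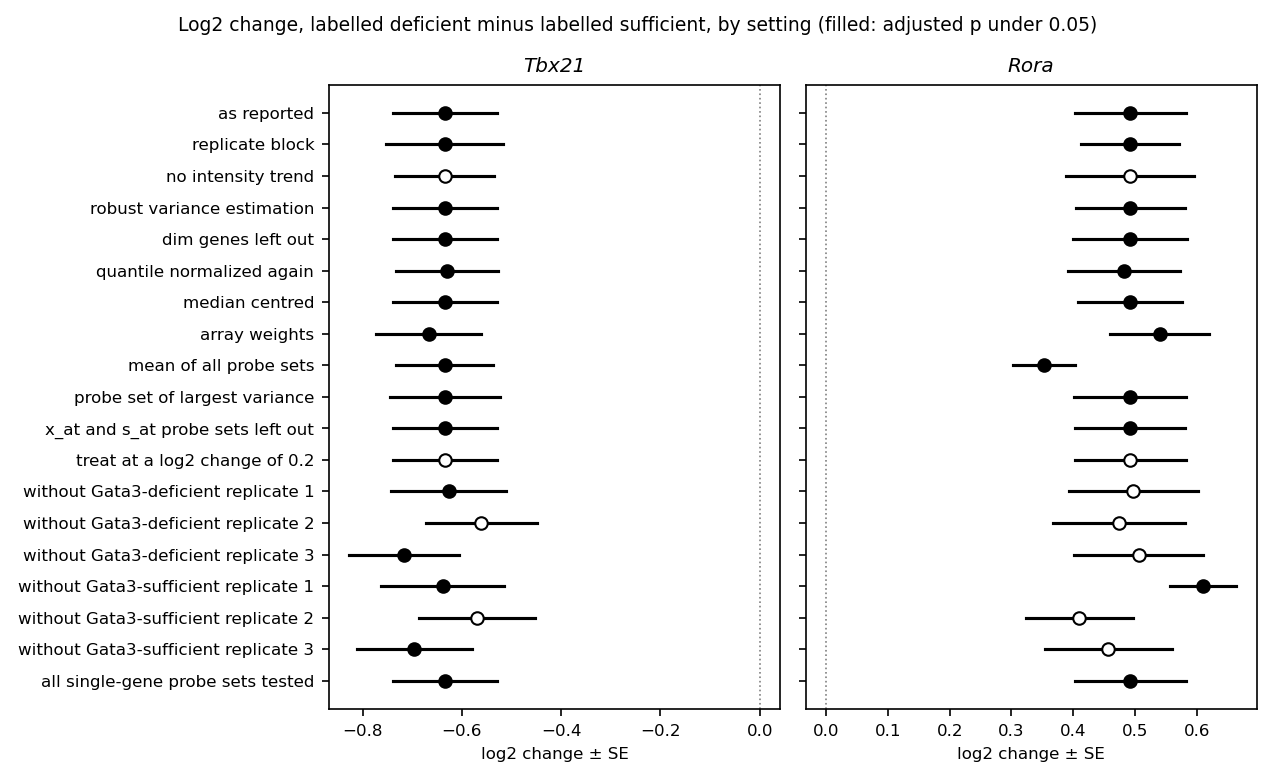
Log2 change ± SE of Tbx21 (left) and Rora (right), arrays labelled Gata3-deficient minus Gata3-sufficient, as reported and under each of the 18 other settings; filled points have an adjusted p under 0.05. Every Tbx21 point lies below 0, between -0.72 and -0.56, and every Rora point above 0, between 0.35 and 0.61, while open points show the settings that lost the call.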

How the data were processed

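The deposited table holds 1 log2 intensity for each of 22690 probe sets on 6 arrays. The authors made these log2 values with RMA (background correction, quantile normalization and probe summary), per the submitters' processing notes (version not given), from 6 ug total RNA per the labels' protocols. That the scale is log2 was inferred from the values' range. Scanner files were not used here, which leaves background and saturation unread, and the labels name no batch. The platform annotation named 1 gene for 20393 probe sets, several for 691 and none for 1606. A gene table of GRCm38.p6 was used for names, and RefSeq promoters of that build for sequence.

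Groups came from the array titles. The fit used R 4.3.3 with limma 3.58.1 (lmFit, then eBayes with an intensity trend), two-sided, on 12394 genes, adjusted by Benjamini-Hochberg. Intervals are 95% and use limma's moderated SE. An exact permutation of 3 arrays against 3 cannot go below p = 0.1. A list's summed level is the log2 of its summed linear intensities. The number of arrays limits the precision. The rule named all 9 factors, list members past the threshold, those of smallest p up to 3 a list, and the 3 nearest genes by r. Irf4, Il10, Cyp1a1, Ahrr, Arnt, Runx1, Cbfb, Klrk1, Klrd1 and Klrc1 were named for their role after their values were seen. Tiparp, Aldh3a1, Cyp1a2, Cxcr3, Ctla4 and Icos were also named after their values were seen. The factors and lists were chosen with earlier results of these data known. Figures used matplotlib 3.10.9 in Python 3.11.15.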

Additional observations from a re-analysis of the deposited data

How the results depend on the processing

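Of the 9 factors, 1 was higher and 1 lower as reported. Without limma's intensity trend 0 were higher and 0 lower, and over all genes 31 were higher and 23 lower, against 179 and 95 as reported. When a log2 change above 0.2 was required (treat), 0 and 0 factors passed, and 19 genes were higher and 11 lower. Array weights raised the counts over all genes to 400 higher and 185 lower, with the same 1 and 1 factors. With each array left out in turn, 0 to 1 factors were higher and 0 to 1 lower, and over all genes 35 to 165 were higher and 24 to 105 lower. Robust variance estimation, dim genes left out, renewed quantile normalization, median centring, other choices of probe set per gene and, added after seeing the data, all probe sets tested together changed no count of called factors. Tbx21 passed in 14 and Rora in 11 of 18 settings, each with 1 direction, while Eomes and Hlx had no value where dim genes were left out. Signs turned for Prdm1 without deficient replicate 3 (-0.11) or sufficient replicate 2 (-0.087), in a range of -0.11 to 0.089 with 1 array left out, and for Runx3 without deficient replicate 2 (-0.0051, in a range up to 0.074), and the cause was not tested.

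The replicate numbers are not stated to pair mice. Deviations of same-numbered arrays from their group means correlated at 0.04, -0.02 and 0.07, against -0.06 to 0.02 for arrays of unlike number. With 3 arrays a group, these correlations cannot settle whether the numbers pair arrays. With the replicate number as a block 1 factor was higher and 1 lower, and 234 genes were higher and 134 lower, against 179 and 95 as reported. The arrays numbered 1 and 3 correlated best with their own number, and those numbered 2 did not.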
